A study of Homo sapiens with 47 samples.

Results

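The 8 genes described here, MEIS1, MEIS2, MEIS3, PBX2, PBX3, PBX4, PKNOX1 and PKNOX2, were chosen by name out of 58051 genes listed in every library. They encode homeodomain proteins of the TALE class, which bind DNA together with HOX proteins. PBX proteins form complexes with HOX proteins on a shared site and sharpen the choice of that site. MEIS and PKNOX proteins bind the PBX partner, and this binding helps PBX to enter and remain in the nucleus. In vertebrate embryos MEIS1 and MEIS2 mark the proximal limb bud and parts of the hindbrain and trunk, and they are known to respond to retinoic acid.

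The cells were WA09 (H9), an established human embryonic stem cell line, in 47 poly(A) RNA-seq libraries that fall into 16 groups. The t0 group was undifferentiated cells. All later groups had been kept in N2B27 medium lacking vitamin A, with the WNT pathway agonist CHIR-99021, rhFGF2, the retinoic acid receptor inverse agonist AGN193109 and the ROCK inhibitor Y-27632. The 36h group held neuromesodermal progenitor (NMP)-like cells after 36 h of this treatment, and P1 to P10 were successive passages of the same cultures. These 12 time points made 35 whole-culture libraries, with 3 independent differentiations (replicates 1 to 3) at each and 2 at P9. The other 12 libraries were the epithelial (EPI) and mesenchymal (MES) fractions of P5 and P8, with 3 each. TrypLE was used to detach one kind of cell before the other, so the fractions were enriched and not pure, and the labels call EPI cells pre-neural progenitors (PNPs) and MES cells neural crest (NC). Whole cultures are mixtures, in which fewer cells of a type and less RNA per cell cannot be told apart.

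All 8 genes carry the loop that gives the class its name. The 45 bases given for each gene come from its GENCODE 29 coding sequence (GRCh38) and are printed so that the shared and the differing bases of the subfamilies can be read. The capitals mark 9 bases, the 3 codons of the loop that occupy the same place in each gene.
MEIS1: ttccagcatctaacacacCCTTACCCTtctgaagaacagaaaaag
MEIS2: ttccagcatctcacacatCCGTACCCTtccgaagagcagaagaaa
MEIS3: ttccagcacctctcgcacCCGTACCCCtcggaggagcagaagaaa
PBX2: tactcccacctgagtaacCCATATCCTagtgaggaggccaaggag
PBX3: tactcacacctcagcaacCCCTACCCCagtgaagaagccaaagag
PBX4: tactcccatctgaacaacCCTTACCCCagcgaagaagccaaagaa
PKNOX1: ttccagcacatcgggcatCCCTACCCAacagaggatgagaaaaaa
PKNOX2: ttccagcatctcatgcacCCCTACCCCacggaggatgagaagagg

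The marked codons were spelled in 7 different ways among the 8 genes. Over the whole homeobox, the MEIS genes shared 77.2% to 83.6% of bases with each other, the PBX genes 79.4% to 79.9%, and PKNOX1 and PKNOX2 78.3%. MEIS and PKNOX genes shared 64.6% to 73.5%, whereas PBX genes shared 46.0% to 51.9% with MEIS genes and 46.0% to 51.3% with PKNOX genes. In each MEIS and PKNOX gene an intron interrupts the stretch after base 15, before the loop, and in each PBX gene the stretch lies in 1 exon. For MEIS1 on the plus strand the pieces are chr2:66512280-66512294 and chr2:66547943-66547972, and for MEIS2 on the minus strand they are chr15:37036814-37036828 and chr15:36950371-36950400. The unbroken PBX3 stretch on the plus strand is chr9:125935527-125935571.

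The genes themselves span chr2:66433452-66573869 (MEIS1), chr15:36889204-37101299 (MEIS2), chr19:47403124-47419523 (MEIS3), chr6:32184741-32190186 (PBX2), chr9:125747345-125967377 (PBX3), chr19:19561707-19618916 (PBX4), chr21:42974510-43033931 (PKNOX1) and chr11:125164687-125433389 (PKNOX2). RefSeq promoters (GRCh38.p14, 250 bases before to 50 after the start) were found for 7 of the 8 genes, all but PKNOX2. They were searched on both strands for TGACAG, the MEIS and PKNOX core motif held by 15.8% of 35116 promoters, for TGATTNAT, a PBX and HOX composite motif held by 2.82%, and for CTTTGAT, the motif of WNT-responsive TCF and LEF factors held by 2.62%. Only 2 matches were found, so no matches overlapped. With so few promoters, these matches cannot be told apart from the shares over all promoters. All that were found are printed, with the match in capitals.
MEIS2, minus strand, chr15:37098733-37098780: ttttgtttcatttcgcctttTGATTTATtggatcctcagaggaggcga
PBX3, plus strand, chr9:125748143-125748182: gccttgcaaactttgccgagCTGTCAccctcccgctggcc

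The MEIS2 match was TGATTNAT on the strand of the gene, with its first base 64 bases before 1 of the 2 MEIS2 starts in the table. The PBX3 match was TGACAG on the opposite strand, 20 bases before the start. Binding was not measured here.

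Library totals ran from 13029491 to 64082859 expected counts, with a median of 47292229. Levels are given as deposited TPM, an RNA-seq unit scaled for transcript length and library size, that can be compared between genes. Some libraries stood apart from their group. At 36h, replicate 3 had a summed TPM of 633 for the 12 HOX genes of paralogue groups 1 to 4, against 75.0 in replicate 1 and 205 in replicate 2. Replicate 1 of 36h had the lowest sum for 6 NMP and streak genes (TBXT, CDX1, CDX2, NKX1-2, WNT8A and MIXL1), 543 TPM against 2319 in replicate 2 and 2070 in replicate 3. For 5 pluripotency genes (POU5F1, NANOG, LIN28A, EPHA1 and DPPA4) the sums were 3168, 2392 and 1488 in replicates 1 to 3 of 36h, and 2633 in replicate 1 of P1 against 595 and 550 in the others. At P10, the 15 HOX genes of paralogue groups 5 to 9 summed to 1655 in replicate 1 and to 166 and 150 in replicates 2 and 3. The main results that rest on these libraries are given with and without them. A member passed a test where its fold change was at least 2, its adjusted p was under 1% (edgeR quasi-likelihood with the replicate number as a block, Benjamini-Hochberg over all genes tested) and its mean was at least 100 normalized counts.

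**Figure D1:**
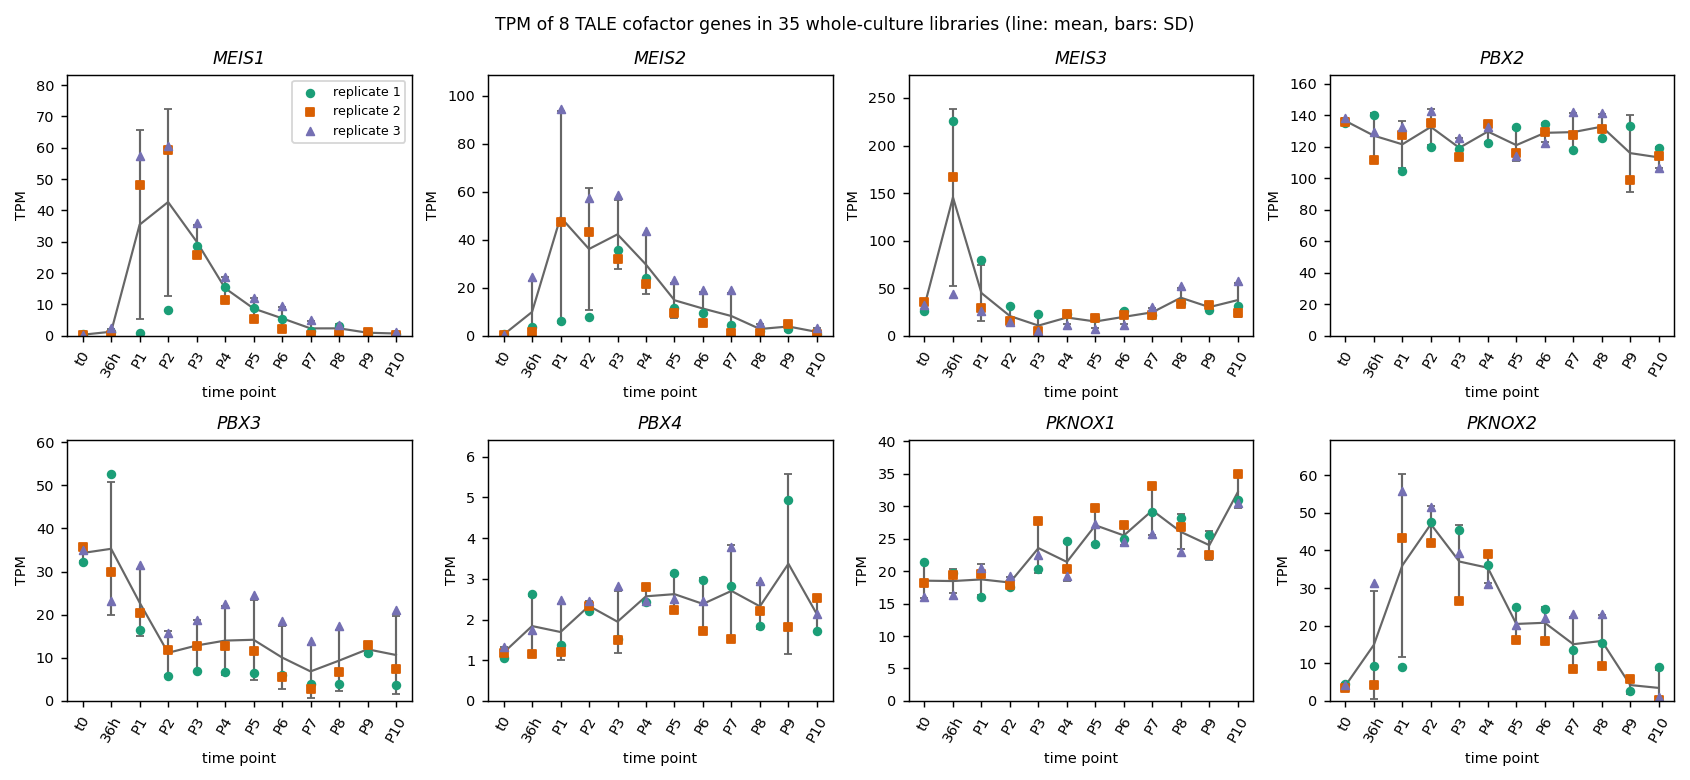
TPM (linear axes from 0) of each gene in the 35 whole-culture libraries by time point, with points for replicates 1 to 3, a line for the mean and bars for the SD. MEIS1, MEIS2 and PKNOX2 were highest from P1 to P3, MEIS3 at 36h, PBX3 at t0 and 36h, while PBX2 stayed between 98.6 and 143 TPM.

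The share of all genes that passed as higher than t0 was 1.32% at 36h, 3.42% at P1, 5.89% at P2, 5.79% at P3, 6.22% at P4, 6.44% at P5, 6.68% at P6, 7.27% at P7, 7.66% at P8, 10.3% at P9 and 9.47% at P10. The share that passed as lower was 1.37%, 5.35%, 6.89%, 7.78%, 7.74%, 7.8%, 7.85%, 7.85%, 7.67%, 9.35% and 8.74% at the same times. All 11 comparisons share the t0 libraries, so counts of members over these times are not independent.

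MEIS1 was close to absent from undifferentiated cells and was highest at P1 and P2. At t0 its libraries had 0.48, 0.30 and 0.13 TPM in replicates 1 to 3, and at 36h 1.11, 0.36 and 2.31. At P1 they had 0.93, 48.1 and 57.4 TPM and at P2 8.22, 59.2 and 60.6. Replicate 1 thus lay within the range of 36h at P1, and only at P3, with 28.5, 25.7 and 36.0 TPM, did all replicates come close together.

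Markers of other cells moved over the same times. The 5 paraxial mesoderm genes TBX6, MSGN1, MEOX1, TCF15 and FOXC2 summed to 7.13 to 9.51 TPM at t0, where MSGN1 was at 0 in every library, and 2 of 5 had a mean of at least 1 TPM. Their sums were 8.83, 132 and 632 TPM in replicates 1 to 3 of 36h and 7.6, 396 and 487 at P1. MEIS1, MEIS2 and PKNOX2 were likewise highest in replicate 3 at 36h and lowest in replicate 1 at P1. The paraxial mesoderm sums ran from 103 to 308 TPM at P2, 15.95 to 366 at P3, 4.2 to 21.2 at P4 and 2.79 to 4.46 at P5. All 5 of these genes had a mean of at least 1 TPM from P1 to P4, and 1 of 5 at P5. At P3 MEIS1, MEIS2 and PKNOX2 averaged 30.1, 42.2 and 37.0 TPM, and at P4 15.2, 29.6 and 35.4. The 5 mesenchymal genes VIM, COL1A1, COL3A1, PDGFRA and PDGFRB summed to 210.1 to 248 TPM at t0, 1265 to 2584 at P1 and 1197 to 1525 at P5, with 4 of 5 at a mean of at least 1 TPM at t0 and 36h and all 5 at P1 and P5. The part of these cells in the MEIS1, MEIS2 and PKNOX2 differences was not tested.

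From there MEIS1 was lower at each passage mean down to P7. It had 8.77, 5.25 and 12.0 TPM at P5, 3.07, 0.67 and 3.29 at P8, and 0.58, 0.36 and 1.14 at P10, where 1 library lay within the range of t0. Against t0, MEIS1 passed as higher at P1, P2, P3, P4, P5 and P6, in 6 of 11 comparisons. With all libraries its largest log2 fold change was 7.53 ± 1.13 (SE, adjusted p = 1.4e-05) at P2. At P1 it was 7.24 ± 1.13, or 7.90 ± 0.90 without P1 replicate 1. At P8 the log2 fold change was 2.62 ± 1.00 (adjusted p = 0.033) and at P10 0.77 ± 1.05 (adjusted p = 0.56), or 0.35 ± 1.22 without P10 replicate 1.

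MEIS2 was above t0 already at 36h. It had 0.62, 0.44 and 0.23 TPM at t0 and 3.46, 1.56 and 24.6 at 36h, with replicate 3 far above the others. At P1 the values were 6.30, 47.2 and 94.6 TPM, the last being the highest of MEIS2 in any of the 47 libraries. Replicate 1 again came later, with 7.87 TPM at P2 and 35.9 at P3, where the other replicates had 32.1 and 58.7.

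MEIS2 was at 11.6, 9.47 and 23.2 TPM at P5, 2.01, 1.26 and 5.08 at P8 and 0.58, 0.78 and 3.31 at P10. It passed as higher than t0 at 36h and from P1 to P7, in 8 of 11 comparisons, with log2 fold changes of 7.52 ± 1.00 at P1 (adjusted p = 5.8e-06; 8.07 ± 0.95 without P1 replicate 1) and 7.51 ± 0.99 at P3. At P8 and P9 its adjusted p stayed under 1% (0.0034 and 0.00049), but its mean count was below the minimum.

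MEIS3, the third MEIS gene, took a course unlike the other two. It had 26.4, 35.6 and 32.3 TPM at t0 and 226, 167 and 43.4 at 36h. At 36h it was therefore lowest in replicate 3, the library in which MEIS2 was highest, and highest in replicate 1, the library with the least NMP and streak RNA. At P1 it was highest in replicate 1, with 79.3 TPM against 28.8 and 26.5, the library in which MEIS1 and MEIS2 were lowest.

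MEIS3 reached its lowest mean at P3, with 22.5, 4.92 and 4.40 TPM. It ran from 7.18 to 18.9 at P5 and was at 34.8, 33.3 and 51.7 at P8. None of its 11 comparisons with t0 passed. The nearest were 36h, with a log2 fold change of 1.98 ± 0.56 (adjusted p = 0.021), and P3, with -1.78 ± 0.57 (adjusted p = 0.013). The expected counts of MEIS3 were not whole in 91.5% of libraries, so RSEM divided some of its reads with other genes. Its processed copies MEIS3P1 and MEIS3P2 reached at most 10.3 and 5.33 TPM. At P3 they averaged 4.51 and 3.90 TPM, where MEIS3 averaged 10.6, so the division of reads weighs more there.

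**Figure D2:**
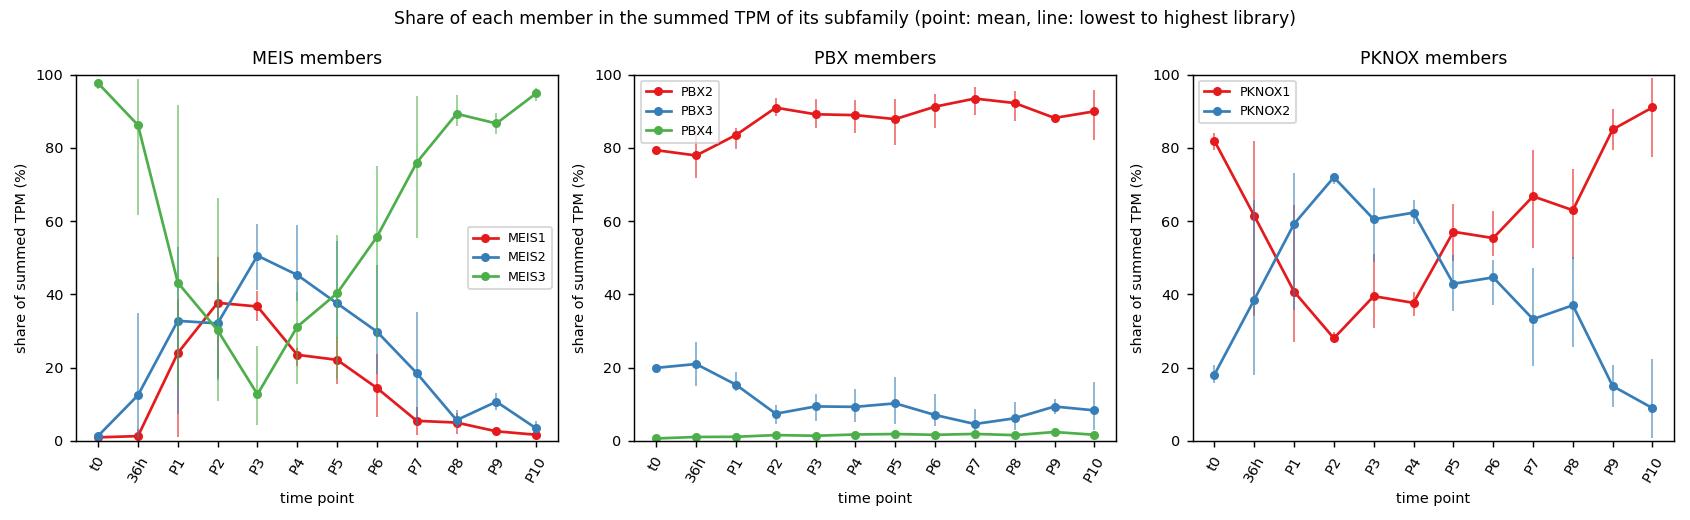
Share (%) of each gene in the summed TPM of the genes of its subfamily shown here, by time point in whole cultures; points are means and lines run from the lowest to the highest library. MEIS3 held 97.6% of the MEIS sum at t0, 12.7% at P3 and 94.9% at P10, and PKNOX2 held 72.0% of the PKNOX sum at P2 and 8.97% at P10.

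The make-up of the MEIS sum therefore turned over and back again in the cultures. MEIS3 made up 97.6% ± 1.5 (SD, n = 3) of the summed MEIS TPM at t0, 12.7% ± 11.5 at P3 and 89.3% ± 4.6 at P8. MEIS2 made up 50.6% ± 9.0 at P3 and MEIS1 36.7% ± 4.1. The sum itself was 157 ± 81.0 TPM at 36h, 82.9 ± 18.6 at P3 and 38.4 ± 4.4 at P5. Among the P3 libraries the highest MEIS3 share was 25.9%. The lowest MEIS3 share was 96.0% at t0 and 86.1% at P8.

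PBX2 was the most abundant of the 8 genes in most whole cultures and the most even. Its libraries ran from 98.6 TPM (P9, replicate 2) to 143 (P2, replicate 3), and its highest and lowest time-point means differed 1.205-fold. Its log2 fold changes from t0 lay between -0.48 and -0.12, and none passed, although 5 had an adjusted p under 1%. At P10 the difference was -0.48 ± 0.09 (adjusted p = 0.00016), well below the 2-fold minimum. All its expected counts were fractional, while its copy PBX2P1 had at most 0.48 TPM.

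PBX3 was the member that passed as lower than t0 with all libraries included. It had 32.3, 35.6 and 35.04 TPM at t0, 52.7, 30.0 and 23.2 at 36h and 16.6, 20.4 and 31.5 at P1. At P2 it had 5.83, 11.9 and 15.8 TPM, and at P7 3.83, 2.81 and 13.9. It passed as lower than t0 at P2 to P8 and P10, in 8 of 11 comparisons, with log2 fold changes from -1.68 ± 0.47 at P4 to -2.77 ± 0.49 at P7 (adjusted p = 6.9e-05). At P10 it passed with and without replicate 1, at -2.12 ± 0.48 and -1.85 ± 0.55. From P1 to P8 and again at P10, replicate 3 had the highest PBX3 level, for example 17.4 TPM at P8 against 4.03 and 6.67. Marker sums also fell: the 5 pluripotency genes summed to 3464 to 3899 TPM at t0 and 501 to 803 at P2. The 4 epithelial genes CDH1, EPCAM, CLDN6 and ESRP1 summed to 888 to 1071 TPM at t0 and 8.56 to 111 at P2. Their part in the PBX3 levels was not tested.

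PBX4 was the least abundant PBX gene, at 1.06 to 4.93 TPM and 15 to 114 expected counts. Its mean count was under 100 at every comparison, so it could not pass. Its fitted values against t0 were all above 0, from 0.30 ± 0.34 at 36h to 1.37 ± 0.38 at P9 (adjusted p = 0.0041). PBX2 accounted for 79.4% ± 0.8 of the summed TPM of these PBX genes at t0 and 92.2% ± 4.2 at P8, and PBX3 for 19.95% ± 0.7 and 6.19% ± 4.04.

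PKNOX1, also called PREP1, moved slowly and within a narrow range. It had 21.4, 18.1 and 16.04 TPM at t0 and 31.0, 34.95 and 30.5 at P10. Its log2 fold change at P10 against t0 was 0.67 ± 0.10 (adjusted p = 1.1e-05), a 1.59-fold difference (0.64 ± 0.12 without P10 replicate 1) that lay under the 2-fold minimum, and the same held for P5 and P7. The time-point means ran from 18.2 TPM at P2 to 32.1 at P10.

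PKNOX2 (PREP2), in contrast, rose with MEIS1 and MEIS2. It had 4.58, 3.44 and 4.19 TPM at t0, 9.16, 4.28 and 31.3 at 36h, and 8.91, 43.3 and 55.9 at P1. At 36h replicate 3 and at P1 replicate 1 again differed from the rest in the same way as for MEIS2. At P2 all replicates were close, with 47.5, 42.0 and 51.5 TPM, and replicate 1, in which MEIS1 and MEIS2 were still below 10 TPM, did not stand apart. PKNOX2 passed as higher than t0 at P1, P2, P3 and P4, with log2 fold changes of 3.20 to 3.67 (3.84 ± 0.78 at P1 without P1 replicate 1).

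Late in the course PKNOX2 was at 15.3, 9.27 and 23.2 TPM at P8, 2.62 and 5.84 at P9 and 8.95, 0.33 and 1.13 at P10. The highest value of P9 and P10, 8.95 TPM, was close to the lowest of P8, 9.27. With all libraries neither time passed against P8 in edgeR (adjusted p = 0.29 and 0.16). Marker sums moved at the same time. The sum of 7 neural crest genes (SOX10, SOX9, SNAI1, SNAI2, FOXD3, TFAP2B and TWIST1) was 111 to 675 TPM at P8 and 961 to 1042 at P9. The mesenchymal sum was 1256 to 3116 at P8 and 3898 to 4602 at P9, and that of 5 neural progenitor genes (SOX2, SOX1, PAX6, IRX3 and NEUROG2) 107 to 331 and 15.5 to 21.4. At P10 the same sums ran from 189 to 909, 1357 to 5511 and 2.86 to 217 TPM, each overlapping P8, with replicate 1 lowest for the first and the second. At a mean of at least 1 TPM were 7, 6 and 6 of the 7 neural crest genes at P8, P9 and P10, all 5 mesenchymal genes at each, and 3, 2 and 2 of the 5 neural progenitor genes. Their part in the PKNOX2 levels was not tested. PKNOX2 held 72.0% ± 1.6 of the summed PKNOX TPM at P2, 37.0% ± 12.4 at P8 and 8.97% ± 11.7 at P10, where it was 22.4% in replicate 1 and 0.94% in replicate 2.

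**Figure D3:**
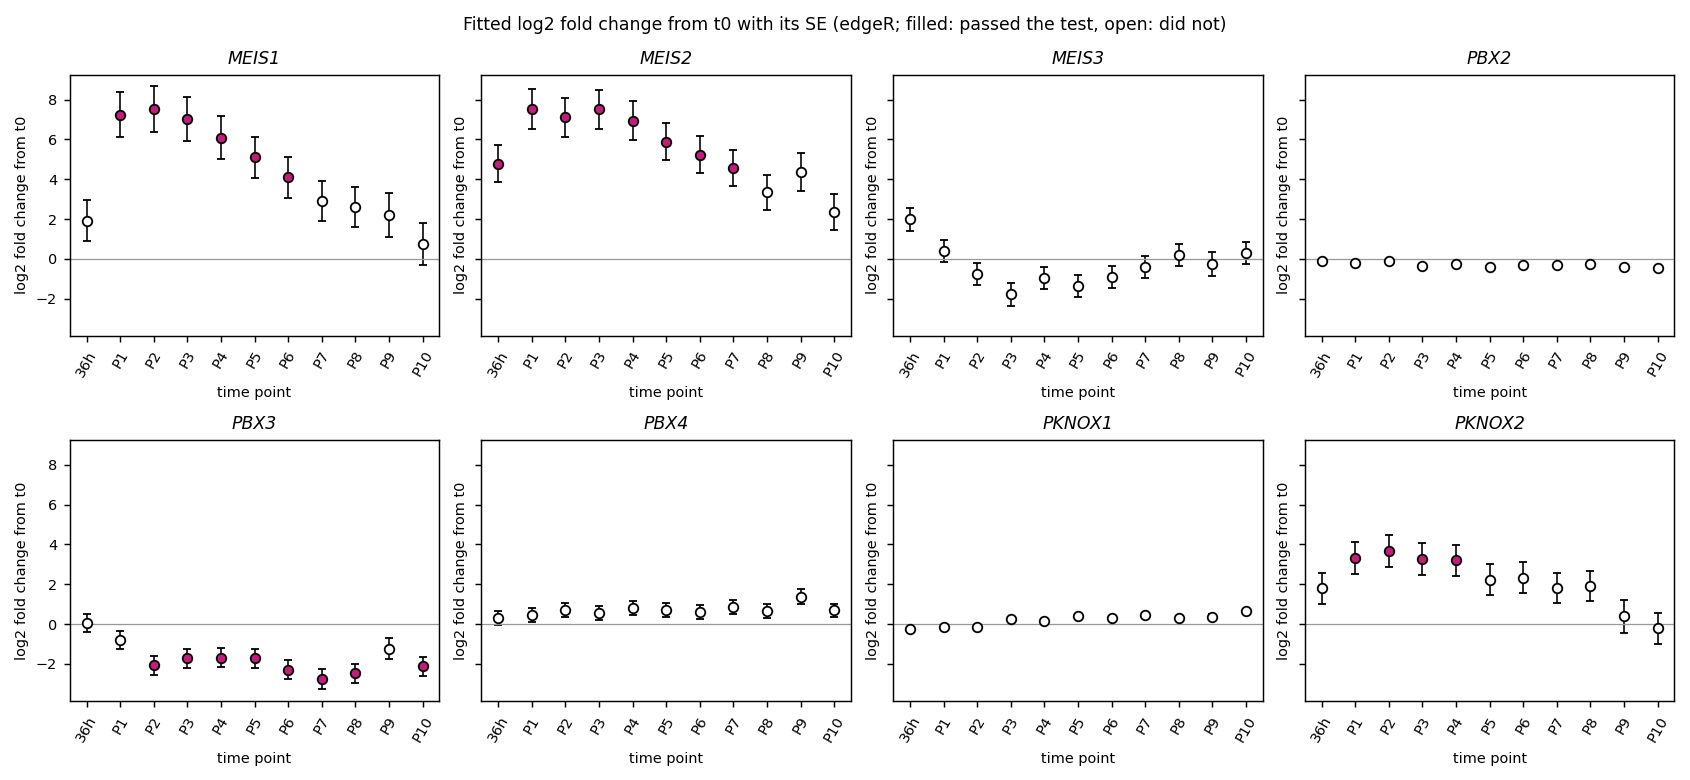
Fitted log2 fold change from t0 (edgeR) at 36h and P1 to P10 for each gene, with bars for the SE; filled points passed the test and open points did not. Filled points lie above 0 for MEIS1 (6 of 11), MEIS2 (8) and PKNOX2 (4) and below 0 for PBX3 (8).

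Each of the 11 steps from one time point to the next was then tested in the same fit. At the step from t0 to 36h, 1 of 8 members passed, MEIS2 with a log2 fold change of 4.77 ± 0.92 (adjusted p = 0.0013), where 2.69% of all 21750 genes tested passed. All 3 replicates were higher at 36h, but the call rested on replicates 2 and 3. Without 36h replicate 3 the value was 3.93 with an adjusted p of 0.010, and without replicate 2 at both times it was 5.98 with an adjusted p of 0.014. The call was also lost in a fit of only the compared groups. MEIS2 left the test where at least 10 counts were required in every library. MEIS3 passed in DESeq2 (adjusted p = 0.0026), where 4.02% of all genes did, but not in edgeR, in which its value of 1.98 became 1.585 (adjusted p = 0.088) without replicate 1.

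At the step from 36h to P1, MEIS1 alone passed, with 5.32 ± 1.01 (adjusted p = 0.0026), where 1.19% of all genes passed. In DESeq2 MEIS1 and MEIS2 passed, where 2.63% of all genes did. Replicate 1 had 1.11 TPM at 36h and 0.93 at P1, and by normalized counts it was higher at P1 by 0.165 on the log2 scale. Without P1 replicate 1 the value was 5.99 (adjusted p = 3.7e-05) and MEIS2 passed as well, with 3.27 (adjusted p = 0.0044). Without replicate 2 or replicate 3 the call on MEIS1 was lost, at adjusted p values of 0.20 and 0.12. It was also lost in a fit of only the compared groups, and with at least 10 counts required in every library MEIS1 left the test. The comparison of P1 with t0, in which 3 members passed where 8.77% of all genes did, gave the same 3 members, MEIS1, MEIS2 and PKNOX2, without P1 replicate 1.

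No member passed in edgeR at any of the 9 later single-passage steps, with 8 of 72 tests (11.1%) at an unadjusted p under 0.05 and 0 to 2 members at each step, against 8.69% of the tests over all genes. Of all genes, 0.0276% passed from P1 to P2, 0.0092% from P2 to P3, 1.22% from P8 to P9 and 0.0% at the other 6 steps. DESeq2 was run only for the step from P8 to P9. Over the longer interval from P1 to P5, 4.0% of all genes passed and no member did in edgeR, although MEIS3 passed in DESeq2, where 5.79% of genes did. An unadjusted p under 0.05 was found for 5 of 8 members (all but PBX3, PBX4 and PKNOX2) and for 31.2% of all genes. MEIS1 had a log2 fold change of -2.14 ± 0.87 (adjusted p = 0.091), which became -2.81 (adjusted p = 0.0084) without P1 replicate 1. MEIS3 had -1.74 ± 0.56 (adjusted p = 0.033), and PKNOX1 had 0.57 ± 0.10 with an adjusted p of 0.00066 but under 2-fold.

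From P5 to P8, 0.0092% of all genes passed in edgeR and 0.713% in DESeq2, and none of the members in either. An unadjusted p under 0.05 was found for 13.3% of all genes and for MEIS1 at -2.48 ± 0.88, MEIS2 at -2.55 ± 0.76 and MEIS3 at 1.54 ± 0.56. From P8 to P9, 1.22% of all genes passed in edgeR and 3.77% in DESeq2 and no member in either, with an unadjusted p under 0.05 for 26.3% of all genes and, among the members, for PBX3 alone (1.24 ± 0.52, adjusted p = 0.13).

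From P8 to P10, 0.0874% of all genes passed in edgeR and 1.41% in DESeq2 and no member in either, with an unadjusted p under 0.05 for PBX2, PKNOX1 and PKNOX2 and for 16.4% of all genes. PKNOX2 had a log2 fold change of -2.14 ± 0.79 (adjusted p = 0.16). Without P10 replicate 1, in which PKNOX2 was at 8.95 TPM, it was -4.56 and passed (adjusted p = 0.00030). Against t0, PKNOX2 at P10 had -0.22 ± 0.77 with that library and -2.66 ± 0.72 without it, where it passed as lower (adjusted p = 0.0036). That library also kept a summed TPM of 224 for the 6 NMP and streak genes, against 4.84 and 3.87 in the other P10 libraries, and their part in the result was not tested.

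Over the interval from t0 to P8, PBX3 was the 1 member that passed, with -2.47 ± 0.49 (adjusted p = 0.00020), where 15.3% of all genes did. The call was lost without the replicate block (-2.11, adjusted p = 0.019) and without replicate 2 (-2.32, adjusted p = 0.023). PKNOX2 stood at 1.92 ± 0.77 (adjusted p = 0.040).

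**Figure D4:**
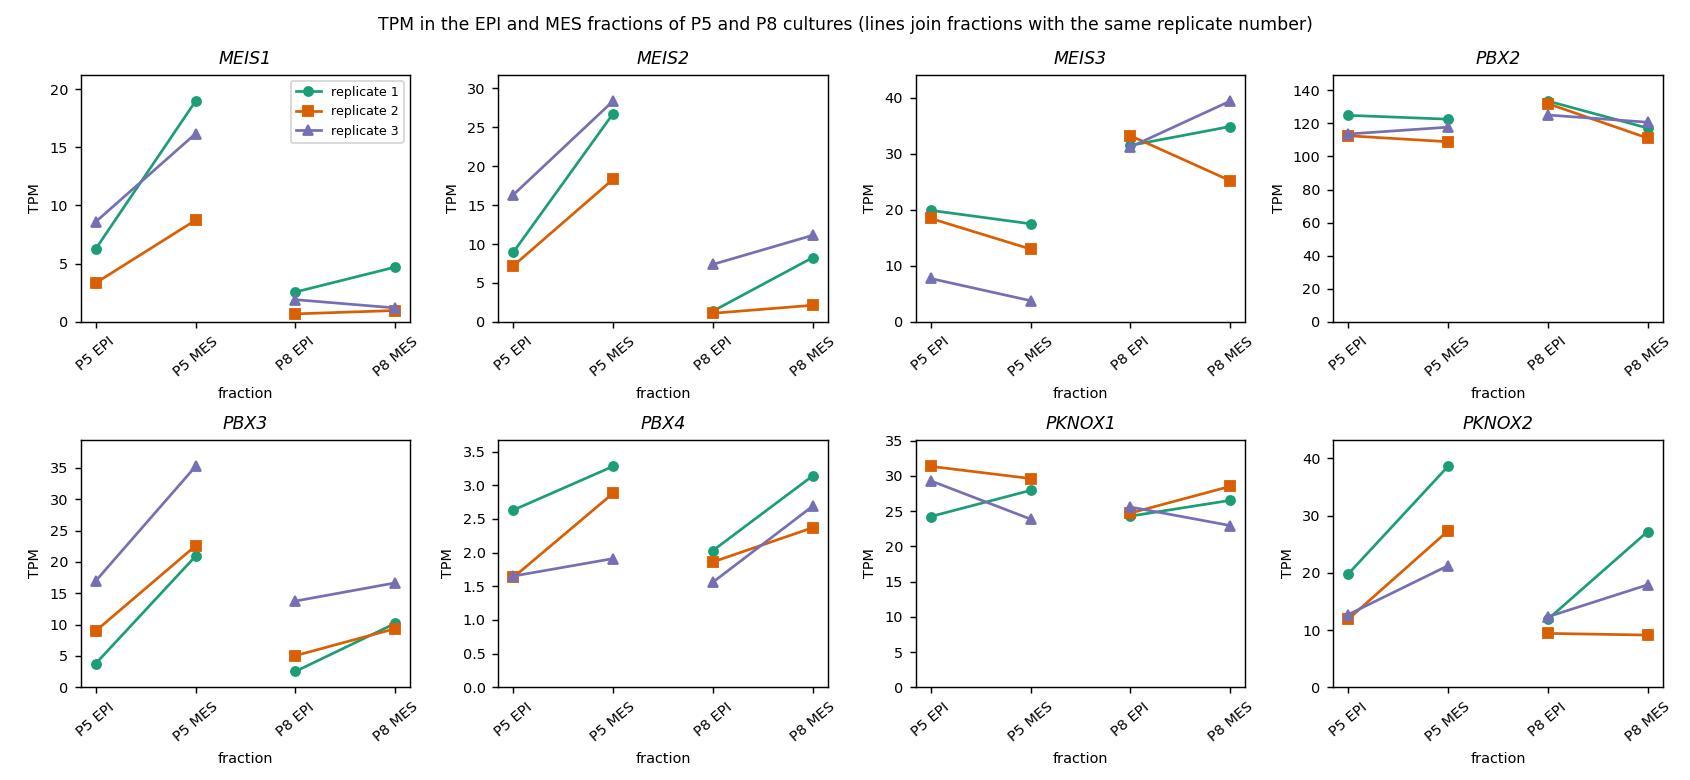
TPM (linear axes from 0) of each gene in the EPI and MES fractions of P5 and P8, with a line joining the fractions that share a replicate number. At P5 the MES point is the higher one in all 3 pairs for MEIS1, MEIS2, PBX3, PBX4 and PKNOX2, and lower in all 3 for MEIS3; by normalized counts PBX4 is higher in MES in only 1 of these pairs.

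The fractions ask which cells of the mixture carried each cofactor. At P5, MEIS1 had 6.28, 3.35 and 8.60 TPM in EPI and 19.0, 8.74 and 16.2 in MES, so that the lowest MES library lay just above the highest EPI library. MEIS2 had 8.94, 7.20 and 16.3 TPM in EPI and 26.8, 18.3 and 28.4 in MES. PBX3 had 3.78, 8.99 and 17.0 in EPI and 20.9, 22.6 and 35.2 in MES. PKNOX2 had 19.8, 11.9 and 12.7 in EPI and 38.6, 27.4 and 21.3 in MES. For each of these 4 genes every P5 MES library was above every P5 EPI library, 4 of the 7 members that averaged 100 normalized counts or more (all but PBX4), as was the case for 15.1% of 12962 such genes.

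No member passed between the P5 fractions in edgeR, where 0.0% of 19476 genes passed at all and 25.2% had an unadjusted p under 0.05. An unadjusted p under 0.05 was found for 4 of 8 members. The log2 differences, MES minus EPI, were 1.81 ± 0.37 for PBX3 (adjusted p = 0.029), 1.302 ± 0.303 for MEIS1 (adjusted p = 0.040), 1.01 ± 0.24 for PKNOX2 (adjusted p = 0.042) and 1.37 ± 0.48 for MEIS2 (adjusted p = 0.12). PBX3, MEIS1 and PKNOX2 passed in DESeq2, where 3.48% of genes did. MEIS3 had -0.46 ± 0.39, PBX2 0.00 ± 0.07 and PKNOX1 -0.02 ± 0.07.

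At P8 no member passed between the fractions. PBX3 had 2.52, 5.04 and 13.8 TPM in EPI and 10.2, 9.35 and 16.7 in MES, and MEIS2 had 1.39, 1.11 and 7.39 in EPI and 8.27, 2.14 and 11.1 in MES. MEIS1 had 2.57, 0.69 and 1.91 in EPI and 4.71, 0.98 and 1.2 in MES, so replicate 3 was lower in MES by TPM, while by normalized counts it was higher in MES by 0.33 on the log2 scale. No member passed in DESeq2 either, and 0.0% of genes did in edgeR and 0.277% in DESeq2. An unadjusted p under 0.05 was found for 6 of 8 members (all but MEIS3 and PKNOX1) and for 11.7% of all genes. The largest difference was 1.43 ± 0.50 for MEIS2 (adjusted p = 0.36).

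By normalized counts, MEIS1, MEIS2, PBX3 and PKNOX2 were higher in MES in all 6 pairs, 4 of the 7 members with a mean of at least 100 (all but PBX4), where 15.9% of 12962 such genes did the same. The difference between P8 and P5 in the MES to EPI contrast was tested as an interaction, which no member and 0.0% of genes passed in edgeR, and no member and 0.0103% of genes in DESeq2. No member had an unadjusted p under 0.05 there, and the estimates ran from -0.66 ± 0.50 for PBX3 to 0.57 ± 0.31 for PBX4. The 7 neural crest genes summed to 399 to 559.7 TPM in P5 MES and 72.2 to 246 in P5 EPI, with all 7 at a mean of at least 1 TPM in both. At P8 those sums overlapped, at 247 to 978 in MES and 89.1 to 697 in EPI. With the replicate block, all 7 were higher in MES at P5 (median log2 difference 1.62) and 5 of 7 at P8 (0.50). The 4 epithelial genes CDH1, EPCAM, CLDN6 and ESRP1 summed to 5.37 to 8.08 TPM in P5 EPI and 1.19 to 6.13 in P5 MES, and to 5.33 to 27.6 in P8 EPI and 3.43 to 24.3 in P8 MES, against 888 to 1071 at t0, so the EPI fractions held little RNA of these epithelial markers.

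Other marker sums also separated the P5 fractions without overlap. Higher in P5 MES were the 5 mesenchymal genes (1515 to 2678 TPM against 1026 to 1173 in EPI, all 5 at a mean of at least 1 TPM in both) and the 5 limb or lateral plate genes PRRX1, TBX4, TBX5, PITX1 and HAND2 (289 to 376 against 181 to 256, with 1 of 5 at that mean in both). Lower in P5 MES were the 5 neural progenitor genes (34.05 to 106 against 184 to 298, 3 of 5 at that mean in both), the 5 pluripotency genes (279 to 492 against 872 to 949, 2 of 5 in MES and 3 of 5 in EPI) and the 6 NMP and streak genes (60.5 to 217 against 296 to 494, 5 of 6 in MES and 4 of 6 in EPI). The paraxial mesoderm sums stayed below 6 TPM in both. At P8 the sums of each of these lists overlapped between the fractions. With the replicate block, the median log2 differences of the separated lists had the same sign at P8 as at P5. They were 1.53 at P5 and 1.43 at P8 for the mesenchymal genes and 0.62 and 0.775 for the limb or lateral plate genes. For the neural progenitor, pluripotency and NMP and streak genes they were -0.87, -0.48 and -0.44 at P5 and -0.35, -0.58 and -0.63 at P8. No gene of these lists passed. The part of cell make-up in the member differences was not tested.

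Within a fraction, the passage comparison showed MEIS1 lower at P8. In MES it fell by 2.82 on the log2 scale (SE 0.33, adjusted p = 0.0061), the 1 member that passed where 0.683% of all genes did. The call was lost without the replicate block (adjusted p = 0.056), without replicate 2 (0.13) and without replicate 3 (0.046). It was also lost in a fit of all 47 libraries and in a fit of only the compared groups. In EPI, where 0.246% of all genes passed, MEIS1 had -2.48 ± 0.33 (adjusted p = 0.011) and no member passed in edgeR. It passed there without replicate 1 (adjusted p = 0.0051), and MEIS1 and MEIS2 passed in DESeq2, where 3.1% of genes did. In MES, DESeq2 passed MEIS1, MEIS2 and MEIS3 and 3.84% of genes. MEIS2 had -1.96 ± 0.49 in MES and -2.02 ± 0.51 in EPI, and MEIS3 had 1.74 ± 0.41 and 1.2 ± 0.40, each with all 3 pairs in the same direction.

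RSEM also reports a length for each gene, the mean over its isoforms weighted by their estimated abundance, and a shift in it stands for another mix of isoforms. PBX3 had a length of 2013 to 2278 bases in the 6 MES libraries and 1937 to 2009 in the 6 EPI libraries, which do not overlap. A longer MES range without overlap was found for 0.239% of 10466 genes with at least 100 counts in every fraction library and more than 1 isoform length. In whole cultures PBX3 lengths ran from 1967 to 2238 at t0 and 36h and from 1887 to 2387 from P5 to P10, so they overlapped.

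PBX2, whose level was so even, had a length of 2956 to 3004 bases in the 6 libraries of t0 and 36h and 2623 to 2901 in the 17 libraries of P5 to P10. A shorter late range without overlap was found for 0.627% of 9416 genes. Both genes were singled out after all 8 lengths had been seen, and the lengths were not tested. Each share counts only the direction that the gene showed. Shares for the other direction, and for P1 to P10 against t0 and 36h, are not given. MEIS1 and MEIS2 had under 10 counts in some t0 libraries and their lengths there were not used.

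**Figure D5:**
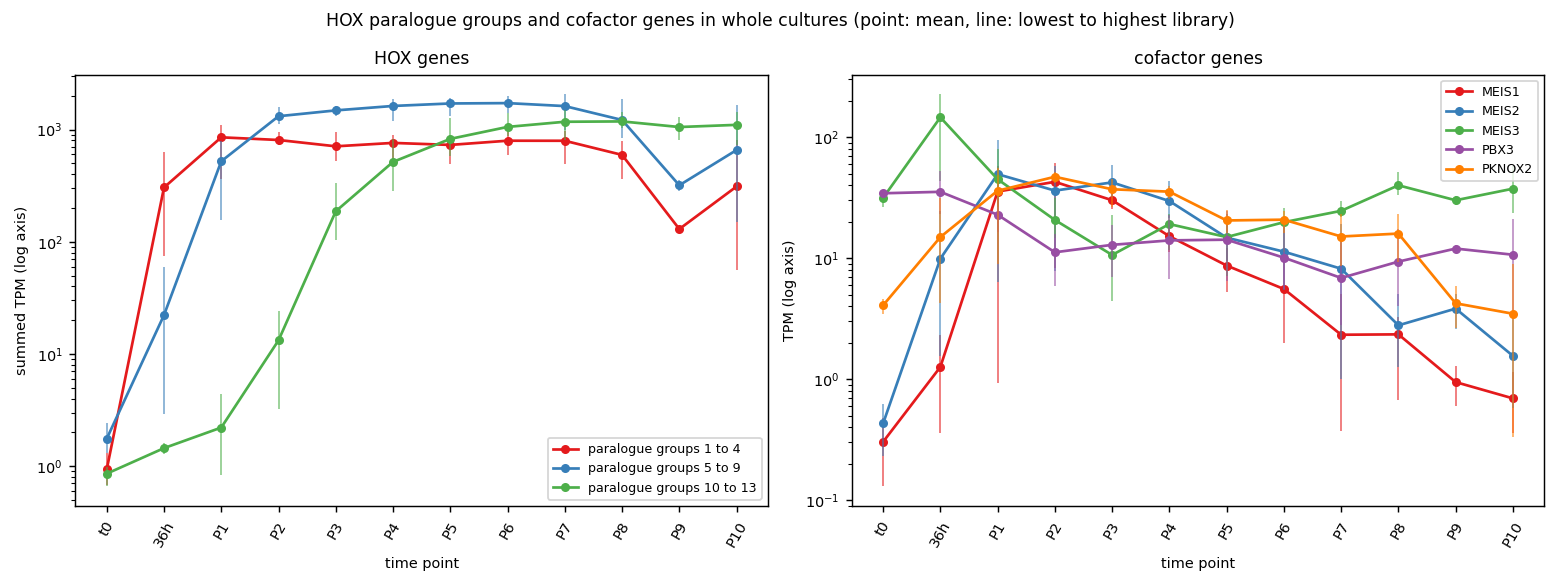
Left, summed TPM (log axis) of the HOX genes of paralogue groups 1 to 4 (12 genes), 5 to 9 (15) and 10 to 13 (12) by time point in whole cultures; right, TPM (log axis) of 5 cofactor genes. Points are means and lines run from the lowest to the highest library; MEIS1 and MEIS2 reach their highest means at P2 and P1, while the sum of groups 10 to 13 is 13.2 TPM at P2 and 1181 at P8.

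HOX genes, the partners of these proteins, are numbered by paralogue group from the anterior (low numbers) to the posterior (high numbers) of their clusters. Groups 1 to 4 summed to 0.94 ± 0.33 TPM at t0 and 852 ± 426 at P1. Groups 5 to 9 summed to 521 ± 327 at P1 and 1314 ± 247 at P2. Groups 10 to 13 summed to 2.21 ± 1.90 at P1, 187 ± 129 at P3 and 1181 ± 216 at P8. The highest MEIS1 and MEIS2 means thus lay at P1 to P3, when groups 10 to 13 were still below 336 TPM in every library. At P8, where 37 of 39 HOX genes passed as higher than t0, MEIS1 and MEIS2 were under 6 TPM in every whole-culture library, with MEIS2 at up to 11.1 TPM in P8 MES. These are levels side by side, and no relation between the cofactors and HOX genes was tested.

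At 36h replicate 3, the library with the most MEIS2 and PKNOX2, had the most HOX RNA of groups 1 to 4 and of groups 5 to 9 (59.4 TPM against 2.92 and 4.31). At P1 replicate 1, the library with the least MEIS1, MEIS2 and PKNOX2, had the least of both (361 and 156 TPM, against at least 1089 and 623 in the others). In the fractions the order was the other way. Groups 5 to 9 summed to 815 to 1211 TPM in P5 MES, where MEIS1, MEIS2, PBX3 and PKNOX2 were higher, and 1749 to 2051 in P5 EPI.

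The wider TALE class holds 9 other genes measured here, TGIF1, TGIF2, IRX1 to IRX6 and MKX. IRX2 passed as lower from P1 to P5 (-2.13 ± 0.54, adjusted p = 0.0081), and IRX2 (-2.30 ± 0.53) and TGIF1 (-1.67 ± 0.33), a repressor of TGF-beta and retinoid responses, passed as lower at P8 against t0. At other times against t0, IRX3 passed as higher at P4 and P9 and IRX5 at P7, P9 and P10. TGIF1 passed as lower at P1 to P7, P9 and P10 as well, and IRX2 at P6, P7 and P10. MKX passed as higher at P9 against P8 (3.97 ± 0.76, adjusted p = 0.0038), from a mean of 0.30 TPM to 4.55 with an SD of 5.42. PBXIP1, which encodes a protein that binds PBX, passed as lower at P1 against t0 (-1.09 ± 0.24, adjusted p = 0.0010) and in no other comparison by edgeR.

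Of 17 retinoid genes, 2 passed as higher from t0 to 36h (STRA6 and CRABP2, which take up or carry retinoids), with a median log2 fold change of 0.06 over the list and 0.00 over all genes. STRA6 had 3.02 ± 0.39 and CRABP2 2.57 ± 0.24. ALDH1A2, the main retinoic acid synthesising enzyme of the early trunk, averaged 0.30 TPM at t0, 172 ± 173 at P1 and 1.70 ± 1.18 at P5, and passed as lower from P1 to P5 (-6.83 ± 1.59, adjusted p = 0.0044). At P8 against t0, CYP26B1 (5.86 ± 0.83) and STRA6 (3.70 ± 0.40) passed as higher and CYP26A1 (-8.92 ± 1.89) as lower, the CYP26 enzymes being those that break down retinoic acid. All groups after t0 were kept in the receptor inverse agonist.

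Ordered by mean TPM over the 16 groups, neighbouring groups mostly could not be separated by their spread. For MEIS1, 13 of the 15 neighbouring pairs differed by less than the larger SD, for MEIS2 and PBX3 14, for MEIS3 and PKNOX2 13, and for PBX2, PBX4 and PKNOX1 all 15. The genes whose pattern was most like a member's were found by Pearson correlation of log2(TPM + 1) over the 16 group means, among 12418 protein-coding genes with a group mean of at least 5 TPM. Most of the points share a lineage of cultures, so these values describe likeness only. For MEIS1 they were HEYL (r = 0.95), PCTP (0.95) and EMP2 (0.94), for MEIS2 NEK9 (0.95), EMP2 (0.94) and CEP63 (0.92), for PBX3 CD40 (0.93), MRPL16 (0.92) and ZFP82 (0.92), and for PKNOX2 RALGPS2 (0.93), HIC2 (0.92) and HEYL (0.91). Among the members, MEIS1 and MEIS2 had r = 0.93, MEIS1 and PKNOX2 0.89, MEIS2 and PKNOX2 0.91, and MEIS1 and MEIS3 -0.50.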

How the data were processed

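Poly(A) libraries (KAPA mRNA HyperPrep) were sequenced as 75 bp single-end reads. Per the labels and the submitters' processing notes, the authors used cutadapt 1.16, STAR 2.5.2b and RSEM 1.3.0 with GRCh38, and deposited for each library the RSEM expected counts, TPM and gene lengths; the annotation release and the strand setting are not given in the sources used here. Expected counts are estimates in which RSEM divides reads between the genes they fit, and 9.33% of the deposited values were not whole. The deposited TPM are these counts divided by effective length and scaled to the same sum in each library. Without a known strand setting, reads of MEIS1, MEIS2, PBX4 and PKNOX2 cannot be told from those of their antisense genes, which reached at most 1.49 TPM.

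Gene IDs were matched to GENCODE 29 symbols (57447 of 58051). Expected counts were rounded and fitted with edgeR 4.0.16 (R 4.3.3; TMM, filterByExpr, quasi-likelihood), the 35 whole-culture libraries in 1 fit (21750 genes) and the 12 fraction libraries in another (19476). All 8 members passed the filter in both. The replicate number entered as a block because the series describes each number as 1 experiment followed through all time points. The correlation of same-numbered libraries' deviations from their group means averaged 0.65 and 0.78 between fractions at P5 and P8 and between -0.02 and 0.36 otherwise. A call needed an adjusted p under 1%, a 2-fold change and a mean of 100 normalized counts. The SE printed with an edgeR log2 fold change is its absolute value divided by the square root of its quasi-likelihood F. It was not estimated directly and is approximate. DESeq2 1.42.0, other filters, other sets of libraries and left-out replicates were the alternatives. The spread is that of differentiations of 1 cell line. No replicate pair agreed within sampling noise. All members were tested in every comparison, but not every member is named with its values in each. From each other list at most 2 genes with the largest change in each direction are named among those that passed, with marker lists named in full, and for likeness the 3 most similar genes. Some genes of the neural crest and retinoid lists are not reported here and were left out of the sums and counts. The members and lists were chosen with earlier results of these data known.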

Additional observations from a re-analysis of the deposited data

How the results depend on the processing

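The number of members that passed changed as follows. From t0 to 36h it was 1, against 2 with DESeq2, in 1 fit of all 47 libraries or at 5% FDR, and 0 with at least 10 counts required in every library (MEIS1 and MEIS2 then left the test), in a fit of only the compared groups (MEIS2 adjusted p = 0.071) or without 36h replicate 3; leaving out a replicate gave 0 to 1. From 36h to P1 it was 1, against 2 with DESeq2, with all 47 libraries or at 5% FDR and 0 with at least 10 counts or only the compared groups, and leaving out a replicate gave 0 to 2. From P1 to P5 it was 0, against 1 with DESeq2 or at 5% FDR (MEIS3), 1 with no minimum fold (PKNOX1) and 0 to 1 without a replicate. From P8 to P10 it was 0, and 0 to 1 without a replicate (PKNOX2). From t0 to P8 it was 1, against 0 without the replicate block, 2 at 5% FDR, 2 with no minimum mean (MEIS2 added) and 0 to 1 without a replicate. Between P5 fractions it was 0, against 3 with DESeq2 or at 5% FDR. From P5 to P8 it was 0 in EPI, against 2 with DESeq2 or at 5% FDR, 1 with no count filter and 0 to 1 without a replicate. In MES it was 1, against 0 without the replicate block, 3 with DESeq2 or at 5% FDR, 0 in 1 fit of all 47 libraries, 0 with only the compared groups and 0 to 1 without a replicate. The replicate block changed no other count. Counts for P5 to P8 and P8 to P9 in whole cultures, between P8 fractions and for the interaction kept their value under every setting run. By normalized counts in place of TPM, the PBX2 share at t0 was 84.672% and the PKNOX2 share at P2 73.758%. No fold change that passed changed sign under these alternatives. MEIS3 at P1 against t0, which did not pass, was 0.38 with all libraries and slightly below 0 without P1 replicate 1. Single pairs changed direction between TPM and normalized counts in several members, among them the MEIS1 and PBX4 pairs given above. Against t0 at P10 the number that passed was 1, and 2 without P10 replicate 1 (PKNOX2 added). Leaving out 36h replicate 3 or, against t0, P1 or P10 replicate 1, and a replicate block within each passage for the fractions, were alternatives chosen after seeing the data. The other causes were not tested. MEIS1 and MEIS2 had 6 to 21 expected counts in the t0 libraries, which limits the precision of their fold changes. No alternative was run for P2 to P7 and P9 against t0, and for P1 and P10 only these.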
